A study of Rattus norvegicus with 35 samples.

Results

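The 40 genes described here mark white blood cells in rat kidney cortex: 20 for lymphocytes (Ptprc, Cd3d, Cd3e, Cd3g, Cd2, Cd5, Cd4, Cd8a, Cd8b, Il2rb, Il7r, Lck, Zap70, Cd79a, Cd79b, Nkg7, Ccl5, Coro1a, Ikzf1 and Ikzf3) and 20 for myeloid cells (Cd68, Csf1r, Cd14, Cd163, Mrc1, C1qa, C1qb, C1qc, Tyrobp, Fcer1g, Aif1, Itgam, Itgax, Adgre1, Lyz2, Ccl2, Cx3cr1, Trem2, Msr1 and Laptm5). They were taken by name from a table of 32545 genes, and all 40 matched. A gene was tested when it reached 0.5 FPKM (fragments per kilobase of gene length, scaled to library size) in at least 5 libraries. This held for 39 of the 40 and for 15939 genes in all. Cd5, a T cell surface receptor, had at most 13 reads in a library and never reached 0.5 FPKM. Close to the filter were Cd163 with 8 libraries at 0.5 FPKM or more, Cd79a with 9, Ikzf3 with 10, Cd79b and Msr1 with 14 each and Cd8b with 17.

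A kidney holds resident macrophages, which sit between the tubules, together with smaller numbers of T, B and natural killer cells. T cells read antigen through a receptor built on the CD3 chains and signal through the kinases LCK and ZAP70. Macrophages depend on the growth factor receptor CSF1R, secrete complement C1q and clear debris through scavenger receptors, and the chemokine CCL2 draws monocytes in from blood. Some of these markers are shared: Ptprc, Coro1a and Ikzf1 are made by leukocytes of both lineages, and macrophages of the rat, unlike those of the mouse, also carry CD4.

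RNA of the kidney cortex was sequenced from female and male rats on 1 of 3 diets, in 35 libraries, in a study of dietary potassium in salt-sensitive hypertension. The labels give the genotype as WT and name no strain. In every group the rats received a blood pressure telemeter at 8 weeks of age and then ate a diet with 4% NaCl for 5 weeks, so no group had a low-salt diet. The groups differed in sex and in dietary potassium: deficient (DK), normal at 0.36% (NK) and high at 1.41% (HK). Each group had 6 libraries, except female HK with 5. The p-values below measure the spread between these libraries.

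Depth, as reads recovered in genes, was 13.99 to 28.66 M per library, with a median of 14.98 M. Genes of the proximal tubule, which fills the cortex, summed to at least 4194 FPKM in every library, against at most 727 FPKM for genes of the renal medulla. Male HK replicate 5 and male NK replicate 2 stood apart: mitochondrial transcripts held 7.65% and 7.76% of their reads, against 8.59% to 13.6% in the other 33 libraries. By the sample numbers in the labels, 9 libraries form a series of 200s (4 female NK and 5 male DK) and 26 a series of 300s. What these numbers stand for is not stated.

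The lymphocyte genes as a group were lowest in potassium-deficient females, while the myeloid level overlapped across the female diets. The level of a list in a library was taken as the mean over its tested genes of log2(FPKM + 0.5), after each gene's mean over the 35 libraries was subtracted. The lymphocyte level was -0.81 to -0.41 in female DK, with a median of -0.55, and -0.26 to 0.04 in female NK, with a median of 0.01. Female HK libraries stood at -0.43, -0.33, -0.12, 0.02 and 0.12. The female DK libraries thus lay below all female NK libraries, and the range of female HK reached into that of female DK. Medians were 0.22 in male DK, 0.37 in male NK and 0.08 in male HK, and the lowest male library, in DK, had -0.10. In bulk samples, fewer cells of a type and less RNA per cell cannot be told apart.

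The myeloid level overlapped across the 3 female diets, with medians of -0.24 in DK, -0.11 in NK and -0.32 in HK. In males its medians were 0.14 in DK, 0.32 in NK and -0.04 in HK. The lymphocyte level minus the myeloid level was -0.55 to -0.04 in female DK with a median of -0.47, and -0.03 to 0.29 in female NK with a median of 0.13. Female HK libraries had 0.07, 0.10, 0.10, 0.16 and 0.19. All female DK libraries lay below the other female libraries, with replicate 5 of female DK just below replicate 1 of female NK. The order of that pair rests on Cd163, which counts in the myeloid level and passed the filter only through female DK. The separation is therefore not a result by itself. In male DK this difference was -0.21 to 0.17 with a median of -0.06, which overlapped male NK at -0.02 to 0.26.

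**Figure D1:**
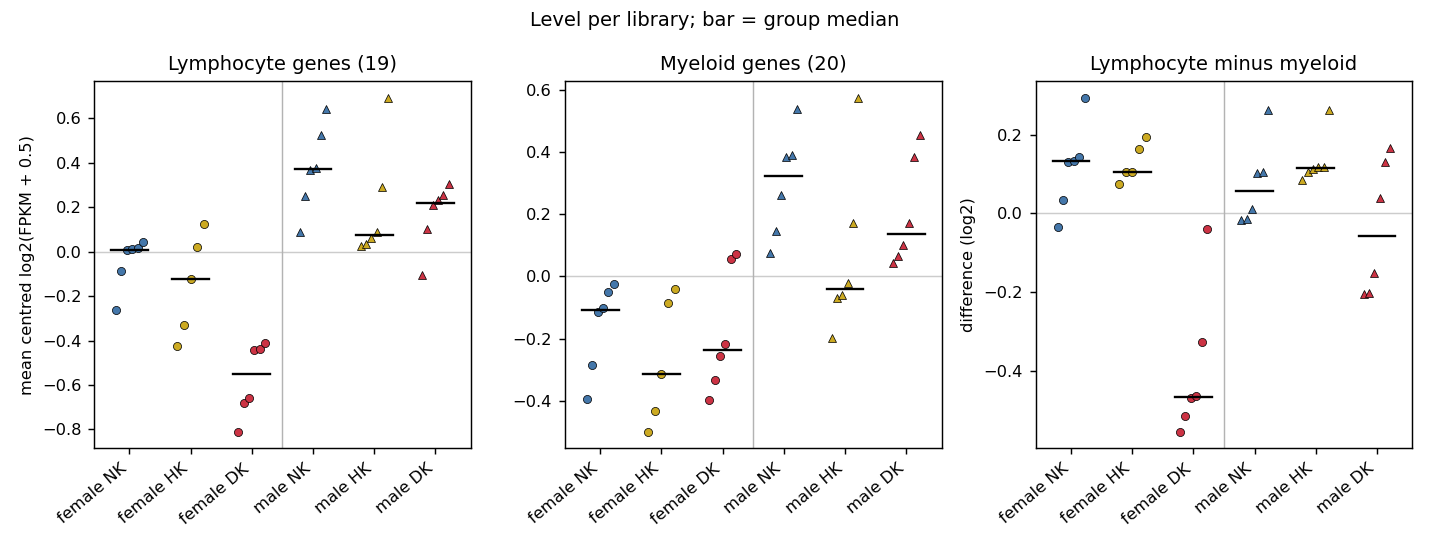
Level of the 19 tested lymphocyte genes, the 20 myeloid genes and their difference (vertical axes, mean of centred log2(FPKM + 0.5)) in each of the 35 libraries by group (horizontal axis). Circles are female and triangles male libraries, and bars are group medians. Female DK has the lowest median in the lymphocyte panel, -0.55, and in the difference panel, -0.47. The myeloid and difference panels count Cd163, which passed the filter only through female DK.

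In female cortex on DK against NK, 11 of the 19 lymphocyte genes fell and none rose, where a gene is called at an adjusted p under 0.05 in a limma fit over all 15939 genes. Of all genes tested, 18.3% were called lower and 17.8% higher. In 6 of the 19 the groups did not overlap, against 11% of all genes. The median log2 change of the 19 was -0.61, beside -0.02 for all genes tested. Fold changes throughout are on the log2(FPKM + 0.5) scale, which understates the change of low genes.

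Ptprc, the CD45 phosphatase of leukocytes, had 1.63 to 3.95 FPKM in female DK with a median of 2.51, and 4.44 to 7.35 in female NK with a median of 6.30. Every female DK library was below every female NK library, with a log2 change of -1.09 (SE 0.15, adjusted p = 1.37e-06). Coro1a, an actin-binding protein of leukocytes, had 11.2 to 19.6 FPKM in DK with a median of 13.9, and 20.7 to 33.9 in NK with a median of 29.3. Its groups did not overlap either, and it fell by 0.98 on the log2 scale (SE 0.15). Ikzf1, the transcription factor Ikaros, had 0.241 to 1.3 FPKM in DK with a median of 0.875, and 1.09 to 2.45 in NK with a median of 2.03. Its groups overlapped, and it fell by 0.86 (SE 0.19).

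Among the T cell receptor genes, Cd3e had 0.569 to 1.5 FPKM in DK with a median of 1.07, and 1.57 to 2.68 in NK with a median of 2.06. The groups were separate, and the log2 change was -0.74 (SE 0.20, adjusted p = 0.00391). Cd3d and Cd3g, further CD3 chains, had medians of 1.08 and 2.36 FPKM in DK and of 1.75 and 4.40 in NK, with overlap. They fell by 0.61 (SE 0.23) and 0.76 (SE 0.26) and rest on 6 to 33 and 6 to 49 reads per library. The Cd3d call was lost without any of female DK replicates 2 and 6 or female NK replicates 2 and 4 and in 4 other settings, with adjusted p up to 0.128. The Cd3g call was lost without female DK replicate 4 or female NK replicate 2 and in 4 settings, with adjusted p up to 0.0938.

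Receptors and signaling genes of T and natural killer cells fell as well. Il2rb, a chain of the interleukin receptors for IL-2 and IL-15, had 0.542 to 1.18 FPKM in DK with a median of 0.945, and 1.43 to 2.86 in NK with a median of 2.23. With no overlap, it fell by 0.90 (SE 0.13, adjusted p = 3.26e-06). Lck had 1.49 to 2.31 FPKM in DK with a median of 1.89, and 2.64 to 4.77 in NK with a median of 3.41, and fell by 0.72 (SE 0.15). Cd2, an adhesion receptor of T and natural killer cells, had 0.512 to 1.28 FPKM in DK with a median of 0.858, and 1.61 to 2.57 in NK with a median of 1.96, and fell by 0.87 (SE 0.21). Neither Lck nor Cd2 overlapped between the groups.

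Cd4 had 11 to 17.4 FPKM in DK with a median of 13.8, and 16.7 to 26.7 in NK with a median of 20.6. It fell by 0.57 (SE 0.14, adjusted p = 0.00187), with female NK replicates 2 and 3 below the highest DK library. Cd8a, a co-receptor of cytotoxic T cells, had 0.482 to 2.16 FPKM in DK with a median of 1.09, and 1.69 to 2.74 in NK with a median of 2.14. It fell by 0.75 (SE 0.20) with overlap, and the call was lost in both settings that use the sample number series (adjusted p up to 0.124).

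The other 8 lymphocyte genes were not called. Log2 changes were -0.33 for Cd8b, -0.32 for the interleukin receptor Il7r, -0.29 for Zap70, -0.52 for the cytotoxic granule gene Nkg7, -0.38 for the chemokine Ccl5 and -0.18 for the transcription factor Ikzf3. The chains of the B cell receptor had positive values, 0.14 for Cd79a and 0.67 (SE 0.29, adjusted p = 0.0671) for Cd79b. Cd79b had 0.250 to 2.51 FPKM in DK and 0.216 to 0.441 in NK, from 4 to 39 reads per DK library, with its highest value in replicate 3. Its adjusted p was 0.0347 when male HK replicate 5 and male NK replicate 2 were left out together, with the same log2 change.

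Of the 20 myeloid genes, 8 fell and 6 rose in female DK (5 without Cd163, for the reason given with its values). Of all genes tested, 18.3% were called lower and 17.8% higher. In 6 of the 20, Cd163 among them, the groups did not overlap, against 11% of all genes. The median log2 change of the 20 was -0.13. Scaled instead by the summed reads of each library ("library sums"), the median of all genes moved to -0.17, and 1489 of all genes were called higher and 5074 lower in place of 2843 and 2917. Then 4 myeloid genes were higher and 9 lower, and 14 lymphocyte genes lower. With the sample number series as a covariate, 9 lymphocyte genes were lower, and 4 myeloid genes higher and 7 lower. Across all settings, calls over all genes ranged from 3567 to 6754, with 5760 in the main fit.

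The chemokine Ccl2, which tubular and endothelial cells also make, had the largest fall among the 39 genes. It had 1.26 to 2.97 FPKM in female DK with a median of 2.22, and 5.59 to 11.4 in female NK with a median of 8.87. All female DK libraries lay below all female NK libraries, with a log2 change of -1.78 (SE 0.20, adjusted p = 2.3e-08). Cx3cr1, the fractalkine receptor of monocytes and resident macrophages, had 2.87 to 4.21 FPKM in DK with a median of 3.47, and 3.04 to 8.38 in NK with a median of 6.43. It fell by 0.64 (SE 0.17), and female NK replicate 2 lay within the DK range.

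Adgre1, which encodes the F4/80 antigen of macrophages, had 3.16 to 5.36 FPKM in female DK with a median of 3.39, and 5.56 to 9.65 in female NK with a median of 7.36. The highest DK library was below the lowest NK library, with a log2 change of -0.88 (SE 0.13, adjusted p = 4e-06). Aif1, the calcium-binding protein IBA1, had 4.13 to 8.95 FPKM in DK with a median of 6.77, and 10.1 to 13.9 in NK with a median of 12.4. The groups were separate here too, and it fell by 0.80 (SE 0.13). Itgax, the CD11c integrin chain of dendritic cells and some macrophages, had 0.923 to 1.48 FPKM in DK with a median of 1.23, and 1.43 to 3.20 in NK with a median of 2.40. It fell by 0.74 (SE 0.14), with female NK replicate 2 inside the DK range.

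Fcer1g, the signaling chain of Fc receptors, had medians of 28.0 FPKM in DK and 43.5 in NK and fell by 0.60 (SE 0.14). Laptm5, a lysosomal protein of leukocytes, had medians of 13.6 and 19.8 FPKM and fell by 0.46 (SE 0.13). Itgam, the CD11b integrin chain, had medians of 0.562 and 0.977 FPKM and fell by 0.39 (SE 0.14). All 3 overlapped between the groups. The Fcer1g and Laptm5 calls were lost in libraries of the 300s alone (adjusted p = 0.0651 and 0.0801). The Itgam call was lost in 4 settings and without any of female DK replicates 3, 5 and 6 or female NK replicates 1, 4 and 5, with adjusted p up to 0.215.

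The 6 myeloid genes that rose encode scavenger receptors, the lipopolysaccharide co-receptor and the chains of C1q. Cd163, the hemoglobin scavenger receptor, had 0.584 to 2.40 FPKM in female DK with a median of 1.04, and 0.0307 to 0.556 in female NK with a median of 0.0662. All female DK libraries lay above all female NK libraries, of which replicate 4 was the highest. The DK libraries held 44 to 160 reads and the NK libraries 2 to 36. Of the 8 libraries in which Cd163 reached 0.5 FPKM, 6 were female DK and 2 were not, so it passed the filter only through the group where it was high, and its place among the genes that rose supports nothing by itself. No other tested member passed through 1 group only. Its log2 change was 1.38 (SE 0.19), with an adjusted p of 1.68e-06 when all 23507 genes with a read were tested with no filter.

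Cd14, the lipopolysaccharide co-receptor, had 10.5 to 18 FPKM in DK with a median of 11.9, and 4.62 to 6.09 in NK with a median of 5.36. There was no overlap, and the log2 change was 1.20 (SE 0.16, adjusted p = 5.1e-07). Mrc1, the mannose receptor CD206, had 2.39 to 7.60 FPKM in DK with a median of 3.91, and 0.945 to 2.39 in NK with a median of 1.98. Its groups met at 2.39 FPKM, and it rose by 1.03 (SE 0.21, adjusted p = 0.000292).

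C1qb had 45.1 to 95.3 FPKM in DK with a median of 48.4, and 24.0 to 31.7 in NK with a median of 27.4. The groups did not overlap, and it rose by 0.96 (SE 0.19, adjusted p = 0.000186). C1qa and C1qc, the other chains of the complex, had medians of 64.4 and 70.8 FPKM in DK and of 50.4 and 48.4 in NK, with overlap, and rose by 0.44 (SE 0.16) and 0.61 (SE 0.18). Female DK replicate 3 held the highest value of all 3 C1q genes. The C1qa call was lost without female DK replicate 3, female NK replicate 3 or female NK replicate 4 and in 6 settings (adjusted p up to 0.302). The C1qc call was lost in 5 settings (adjusted p up to 0.150), library sums and both uses of the number series among them.

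Of the 6 myeloid genes not called, Cd68, a lysosomal glycoprotein of macrophages, had medians of 7.85 FPKM in DK and 9.28 in NK, a log2 change of -0.14 with a 95% interval of -0.45 to 0.18. Csf1r had medians of 15 and 17.6 FPKM and a change of -0.13 with an interval of -0.44 to 0.17. Lyz2, lysozyme, was the most abundant member at medians of 299 and 290 FPKM, with a change of 0.16 and an interval of -0.11 to 0.44. These intervals span 0 in both directions. Tyrobp, an adaptor of myeloid receptors, changed by -0.35 (adjusted p = 0.0613), the lipid receptor Trem2 by 0.51 (adjusted p = 0.0865) and the scavenger receptor Msr1 by 0.27 (adjusted p = 0.175).

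**Figure D2:**
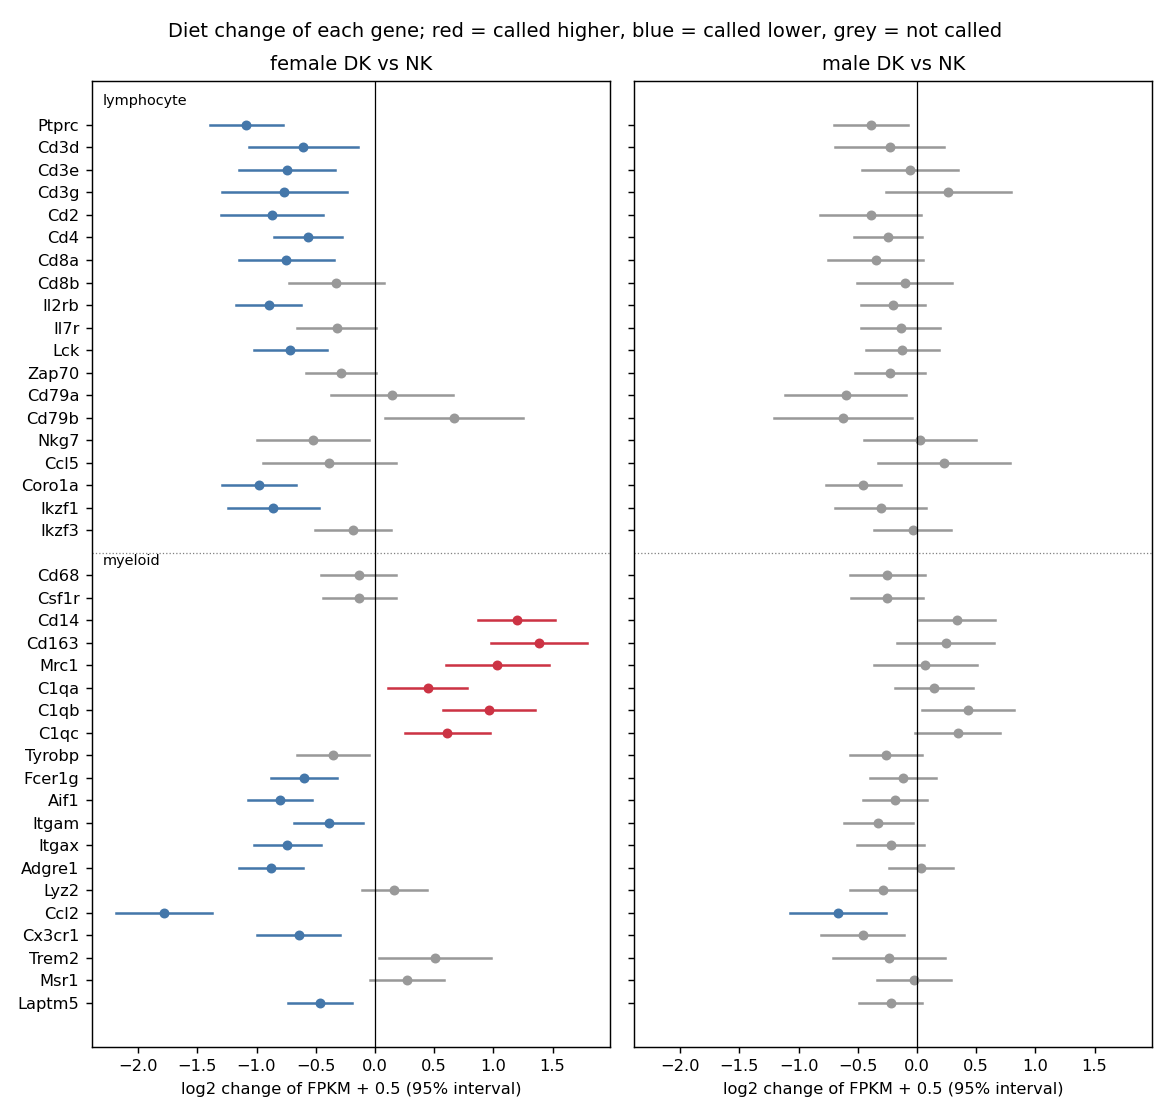
Log2 change of FPKM + 0.5 between DK and NK (horizontal axis) with its 95% interval for each of the 39 tested genes (rows), in females and males. Red marks genes called higher, blue genes called lower and grey the rest. In females Ccl2 lies at -1.78 and Cd163 at 1.38, and in males Ccl2 at -0.67 is the 1 gene called.

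**Figure D3:**
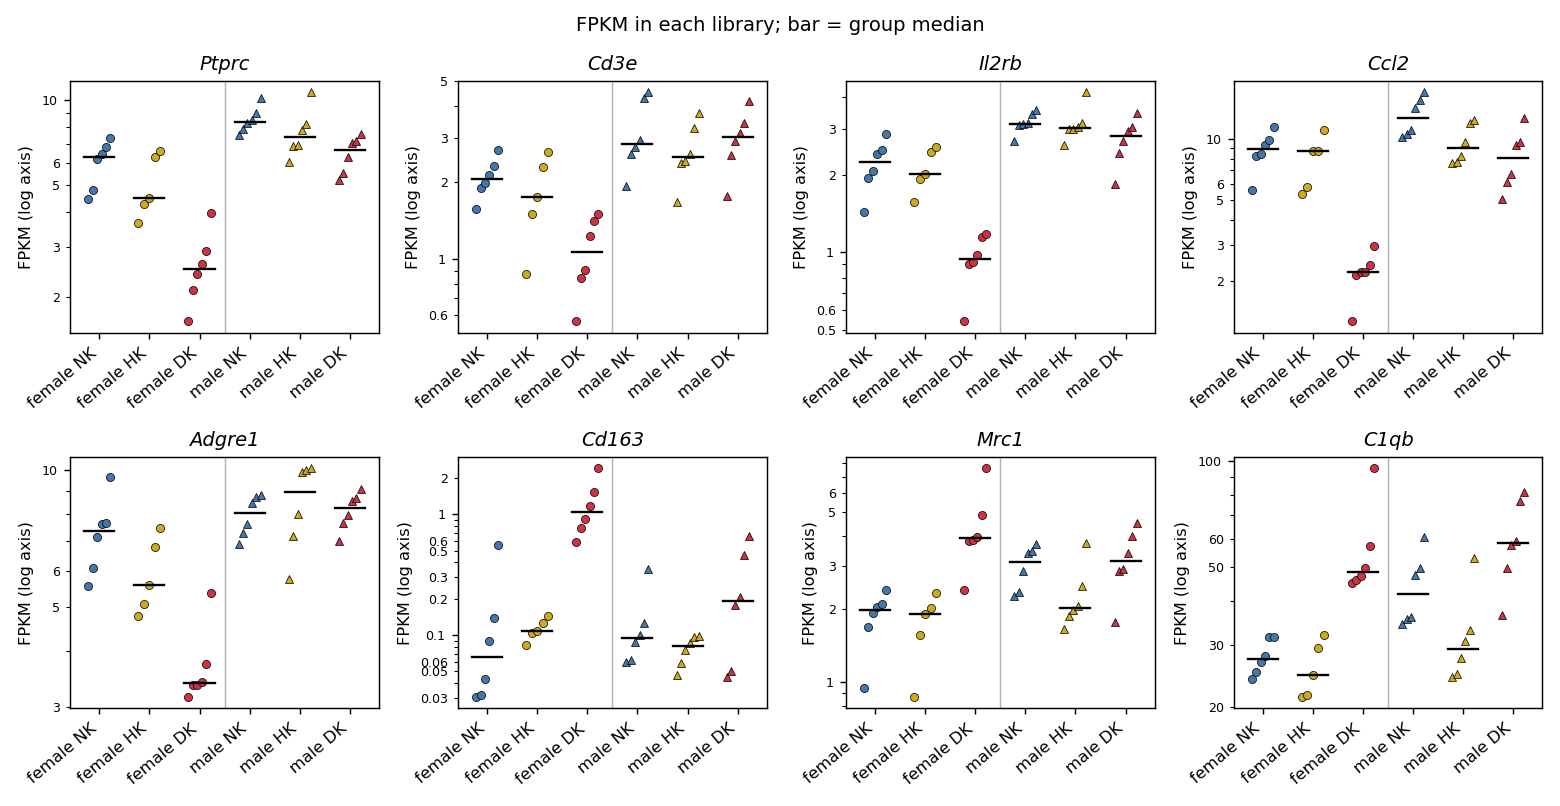
FPKM on a log axis (vertical) of 8 members in each library by group (horizontal), with bars at group medians. Ccl2 in female DK, at most 2.97 FPKM, and Il2rb, at most 1.18 FPKM, lie below all other groups, and Cd163 in female DK, at least 0.584 FPKM, lies above female NK and HK.

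Promoters were examined because macrophage genes moved in both directions in female DK. Windows of 300 bases that span the gene start, mostly upstream of it, from RefSeq on GRCr8, matched 14 of the 20 genes of each list. They were searched on both strands for GAGGAAG (core bound by the myeloid factor PU.1), TGTGGT (RUNX factors), GGGANTTNC (NF-kappa B) and GAAANNGAA (interferon response elements). Shown, with matches in capitals, are a gene that rose, one that fell and Cd163, which passed the filter only through female DK. Mrc1 (chr17:82157475-82157774, plus strand) has the PU.1 core on the reverse strand. Adgre1 (chr9:2329190-2329489, plus strand) has the interferon core followed by the PU.1 core, and Cd163 (chr4:158770524-158770823, plus strand) has no match.
Mrc1: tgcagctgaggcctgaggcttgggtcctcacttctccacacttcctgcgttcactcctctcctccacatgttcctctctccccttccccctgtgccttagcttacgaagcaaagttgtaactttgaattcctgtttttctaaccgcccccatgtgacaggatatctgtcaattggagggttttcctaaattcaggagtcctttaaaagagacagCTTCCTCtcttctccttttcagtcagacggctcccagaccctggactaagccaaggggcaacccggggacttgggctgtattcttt
Adgre1: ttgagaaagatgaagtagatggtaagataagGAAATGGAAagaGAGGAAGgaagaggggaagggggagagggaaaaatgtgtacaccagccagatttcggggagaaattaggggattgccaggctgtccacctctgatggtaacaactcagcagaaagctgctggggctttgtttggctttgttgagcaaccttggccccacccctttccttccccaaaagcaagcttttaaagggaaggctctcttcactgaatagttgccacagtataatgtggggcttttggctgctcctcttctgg
Cd163: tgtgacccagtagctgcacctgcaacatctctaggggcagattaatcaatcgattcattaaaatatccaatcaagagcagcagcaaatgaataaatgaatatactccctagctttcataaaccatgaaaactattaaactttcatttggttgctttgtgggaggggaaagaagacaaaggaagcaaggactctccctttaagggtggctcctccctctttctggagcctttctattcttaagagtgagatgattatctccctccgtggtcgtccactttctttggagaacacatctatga

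The PU.1 core was found in 8 of 14 myeloid promoters (57.1%), in 2 of 14 lymphocyte promoters (14.3%) and in 12.4% of all 27457 promoters of that length. The myeloid genes with it were Adgre1, Cd14, Cd68, Csf1r, Itgam, Laptm5, Mrc1 and Trem2, of which Cd14 and Mrc1 rose in female DK and Adgre1, Itgam and Laptm5 fell. The RUNX core was in 4 lymphocyte and 3 myeloid promoters and 16.9% of all. The kappa B core was in 0 and 3 and in 4.2% of all, and the interferon core in 0 and 4 and in 9.5% of all. A match is a run of letters, not a measured site.

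Lists of other immune genes, chosen with earlier results of these data known, are given by their counts in female DK against NK, to be read against the 17.8% of all genes higher and 18.3% lower. Of 21 other T and natural killer cell genes 16 fell and none rose, such as the activating receptor Klrk1 by 1.26 and the phosphatase Ptpn22 by 0.87. Of 21 other pan-leukocyte genes 16 fell and 1 rose, with Hcls1 down by 1.02 and Lcp1 by 0.93. Of 8 other B and plasma cell genes 4 fell, Fcrla by 0.81 among them. In males, where 2.56% of all genes were higher and 1.74% lower, 0 of the 21 T and natural killer cell genes were called, which is near the share of all genes. There 2 of 21 pan-leukocyte genes were lower, and Fcrla fell by 0.91.

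Of 16 other macrophage genes 3 rose (18.8%, near the share of all genes) and 5 fell (31.2%), with the protease Ctss up by 0.86, and the pore-forming Mpeg1 and the transcription factor Spi1, which encodes PU.1, down by 1.05 and 0.67. Of 12 genes of lipid-associated phagocytes 5 rose and 1 fell, with Gpnmb up by 1.97 and Lgals3 by 0.85. Of 15 monocyte and phagocyte oxidase genes 8 fell, and of 22 chemokines of lymphocytes and monocytes 11 fell (50%) and 3 rose (13.6%, below the share of all genes). Cxcl13 and Cxcl12 fell by 2.16 and 1.45, and Cxcl11 rose by 1.45. Of 8 genes of MHC class II 5 fell, with the transactivator Ciita down by 0.97, and of 8 dendritic cell genes 5 fell. Of 5 neutrophil genes 3 fell and S100a9 rose by 1.47, the only mast cell gene tested, Kit, rose by 0.33, and of 6 blood and platelet genes Pf4 rose by 1.26.

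Lists of other kidney cells and states were counted in the same comparison, beside the same 17.8% higher and 18.3% lower. Of 11 tubular injury genes 7 rose and 1 fell, and their summed level was 1119 to 2265 FPKM in female DK against 480 to 806 in female NK. All 9 proliferation genes fell, with a sum of 5.81 to 11.6 FPKM against 12.4 to 23.9. In males on DK against NK 7 of these 9 were lower and 0 higher, beside 1.74% and 2.56% of all genes. The summed level of 12 proximal tubule genes was 4804 to 6921 FPKM in female DK and 7419 to 12484 in female NK. A sum is weighted to its most abundant genes. Of the 12, 5 were called higher and 4 lower, with a median log2 change of 0.18 and a lowest of -2.68. Called lower were 2 of 10 endothelial genes, 2 of 6 medullary genes and 2 of 3 lymph node stroma genes, and 1 medullary gene was higher. The endothelial count and the higher medullary count are near the share of all genes. The stroma list shares Cxcl13, which fell by 2.16, with the chemokine list. The part of these lists in the results on the immune genes was not tested.

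Female DK was also set against female HK, a comparison that shares the DK libraries with the one above and holds only libraries of the 300s. Of the 19 lymphocyte genes 9 fell and none rose, beside 16.7% of all genes called lower and 16.8% higher, and of the 20 myeloid genes 6 rose (5 without Cd163) and 5 fell. Groups did not overlap for 3 lymphocyte and 7 myeloid genes (Cd163 among the 7), against 14.3% of all genes. The medians of log2 change were -0.48 and 0.00. Under library sums 12 lymphocyte genes were lower, and 5 myeloid genes higher and 8 lower, with 1226 of all genes higher and 5442 lower in place of 2671 and 2657.

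Il2rb in female HK had 2.55, 1.56, 1.93, 2.45 and 2.01 FPKM, all above the DK libraries, and the log2 change was -0.85 (SE 0.14, adjusted p = 1.89e-05). Ptprc had 6.30, 4.48, 4.26, 6.59 and 3.65 FPKM in HK, overlapping DK through the last of these, with a change of -0.85 (SE 0.16). Coro1a fell by 0.81, Cd2 by 0.79, Ikzf1 by 0.86, Cd8a by 0.70 and Lck by 0.48. The Cd3e (-0.53, adjusted p = 0.0499) and Cd3g (-0.74, adjusted p = 0.035) calls were lost when any of several libraries was left out, with adjusted p up to 0.163 and 0.123. Leaving out female HK replicate 1 ended the calls of Lck and Cx3cr1. Cd4 changed by -0.32 (adjusted p = 0.098).

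Cd163 in female HK had 0.0819, 0.145, 0.125, 0.103 and 0.108 FPKM, all below the DK libraries through which it had passed the filter. Its log2 change was 1.42 (SE 0.20), with an adjusted p of 3.26e-06 with no filter. Mrc1 had 2.02, 1.56, 1.91, 2.34 and 0.868 FPKM in HK, and rose by 1.11 (SE 0.22) with no overlap. C1qb, C1qc, Cd14 and C1qa rose by 1.08, 0.92, 1.02 and 0.57, each without overlap. The C1qa call was lost under library sums, quantile normalization and voom (adjusted p up to 0.138). Ccl2 had 8.71, 5.34, 5.80, 8.71 and 11 FPKM in HK, all above DK, and fell by 1.62 (SE 0.21, adjusted p = 4.27e-07). Itgax, Aif1, Adgre1 and Cx3cr1 fell by 0.68, 0.62, 0.61 and 0.57.

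On HK against NK no member was called in either sex, and 0% of all genes were called higher or lower in limma's test. In females the members' log2 changes ran from -0.46 to 0.27 for lymphocyte genes and from -0.31 to 0.18 for myeloid genes, and no member had an unadjusted p under 0.05. In males they ran from -0.50 to 0.09 and from -0.46 to 0.07, with 1 lymphocyte and 5 myeloid genes at an unadjusted p under 0.05. limma voom on recovered reads called 0 members in both sexes.

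In males on DK against NK, none of the 19 lymphocyte genes was called, and of the myeloid genes 1 fell. Of all genes 1.74% were called lower and 2.56% higher. Under library sums 244 of all genes were higher and 1036 lower in place of 408 and 277. At an unadjusted p under 0.05 there were 4 lymphocyte and 6 myeloid genes, and limma voom on recovered reads called 2 of each. The medians of log2 change were -0.23 and -0.20. Ccl2 had 5.04 to 12.7 FPKM in male DK with a median of 8.06, and 10.3 to 16.9 in male NK with a median of 12.6. The groups overlapped, and it fell by 0.67 (SE 0.20, adjusted p = 0.0489), a call lost in 7 settings and without any of 9 of the 12 libraries (adjusted p up to 0.639). Ptprc had 5.19 to 7.55 FPKM in DK and 7.54 to 10.2 in NK (log2 change -0.39, adjusted p = 0.142), and Coro1a changed by -0.45 (adjusted p = 0.087).

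In males on DK against HK, which shares the male DK libraries, 3 myeloid genes rose and no other member was called, beside 2.26% of all genes higher and 1.5% lower. Cd14 had 6.0 to 11.8 FPKM in male DK with a median of 9.63, and 4.02 to 9.95 in male HK with a median of 4.89, and rose by 0.72 (SE 0.16). C1qb had 36.4 to 81.6 FPKM in DK with a median of 58.3, and 24.3 to 53.0 in HK with a median of 29.2, and rose by 0.89 (SE 0.19). C1qc rose by 0.64 (SE 0.18, adjusted p = 0.036), a call lost in 7 settings and without any of 9 of the 12 libraries (adjusted p up to 0.204). The Cd14 call was lost in the groups of the contrast alone and once the series was a covariate. The groups of all 3 overlapped, with male HK replicate 5 the highest HK library in each. With libraries of the 300s alone, which leaves 1 male DK library, none of the 3 was called. Under library sums 203 of all genes were higher and 466 lower in place of 360 and 239.

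The test of whether the DK against NK change differed between the sexes called 9 members. For Ptprc the male change was higher than the female one by 0.70 (SE 0.22, adjusted p = 0.0374), for Il2rb by 0.70 (SE 0.19), for Aif1 by 0.61 (SE 0.19), for Adgre1 by 0.91 (SE 0.19) and for Ccl2 by 1.12 (SE 0.28). The sex difference was negative for Cd14 at -0.86, Mrc1 at -0.96 and Cd79b at -1.29, and for Cd163, which passed the filter through female DK, at -1.14 (adjusted p = 0.00849 with no filter). Those of Ptprc and Cd79b were lost without any of 14 of the 24 libraries, of Mrc1 without any of 12 and of Aif1 without any of 11. The other 5 calls held with each library left out. Of all genes 4.35% were called higher and 4.57% lower in this test, and under library sums 810 were higher and 564 lower in place of 694 and 728. When the number series entered the fit as a covariate, 1 lymphocyte gene was called and no myeloid gene, and in the 300s alone none was. Of the 4 groups in this test, only male DK (5 libraries of the 200s and 1 of the 300s) and female NK (4 and 2) hold both series.

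The same test on DK against HK called Il2rb at 0.66 (SE 0.19), Aif1 at 0.66 (SE 0.19), Ccl2 at 1.38 (SE 0.29, adjusted p = 0.00289) and Cd163 at -1.06 (adjusted p = 0.0264 with no filter), beside 2.12% of all genes higher and 2.64% lower. The Il2rb and Aif1 calls (adjusted p = 0.0401 and 0.0414) were each lost without any of 15 of the 23 libraries and in 4 and 5 settings, and the Cd163 call without male DK replicate 2 or 3 and in 5 settings. In the 300s alone none of the 4 was called, with Ccl2 at an adjusted p of 0.0731. Scaling by library sums gave 735 of all genes higher and 279 lower in place of 338 and 421.

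Males had higher levels of many members on each diet. On NK 7 lymphocyte and 13 myeloid genes were higher and none lower, beside 9.26% of all genes higher and 10.1% lower. Whether called or not, 5 lymphocyte and 6 myeloid genes did not overlap between the sexes, against 10.1% of all genes. Csf1r had 23.2 to 33.0 FPKM in male NK with a median of 28.2, against 13.2 to 21.3 in female NK with a median of 17.6, a log2 difference of 0.70 (SE 0.15). Cd68 was higher by 0.65 (SE 0.16), Cd4 by 0.52 (SE 0.14) and Ptprc by 0.49 (SE 0.15), none of them overlapping. With the series as a covariate 0 lymphocyte genes and 1 myeloid gene, Lyz2 at 0.57, were called, and in the 300s alone none. The 300s alone leave 2 female NK libraries, and 798 of all genes were called there in place of 3082, the fewest of any setting. Without male NK replicate 2 the counts were 4 and 7, without female NK replicate 3 they were 3 and 7, and without female NK replicate 2 or male NK replicate 5 the myeloid count was 8. Under library sums, which moved the median of all genes to 0.12, they were 10 and 17, with 2830 of all genes higher and 898 lower in place of 1476 and 1606.

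On HK, where all libraries are of the 300s, 3 lymphocyte genes (Ptprc, Cd4 and Il2rb, by 0.58, 0.61 and 0.50) and 7 myeloid genes were higher in males, beside 3.7% of all genes higher and 5.35% lower. Cx3cr1 was higher by 0.65 (SE 0.18) with no overlap. Without male HK replicate 5 the counts were 1 and 0. Leaving out other libraries gave 1 to 6 lymphocyte and 0 to 7 myeloid genes, with female HK replicate 2 lowering them to 1 and 0 and female HK replicate 1 raising the lymphocyte count to 6. Female HK replicate 5 lowered them to 1 and 2, and female HK replicate 3 and male HK replicates 1 and 6 lowered the myeloid count to 1, 2 and 2.

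On DK 16 of 19 lymphocyte and 11 of 20 myeloid genes were higher in males and 2 myeloid genes lower, beside 15.2% of all genes higher and 16.6% lower. In 8 of each list the groups did not overlap, against 9.88% of all genes. Ccl2 was higher by 1.66 (SE 0.20), Cd3g by 1.35 (SE 0.26), Ptprc by 1.19 (SE 0.15), Il2rb by 1.16 (SE 0.13) and Adgre1 by 1.05 (SE 0.13), each without overlap. Cd14 was lower in males with a difference of -0.46 (SE 0.16), with overlap, a call lost in 6 settings and without any of female DK replicates 1 and 3 or male DK replicates 1, 2 and 3 (adjusted p up to 0.877). Cd163, which had passed the filter through female DK, differed by -1.15 with overlap (adjusted p = 3.65e-05 with no filter). With the series as a covariate 12 lymphocyte genes were higher, and 10 myeloid genes higher and 1 lower. In the 300s alone, with 1 male DK library, 4 lymphocyte and 6 myeloid genes were higher. Under library sums 4700 of all genes were higher and 1276 lower in place of 2421 and 2646.

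**Figure D4:**
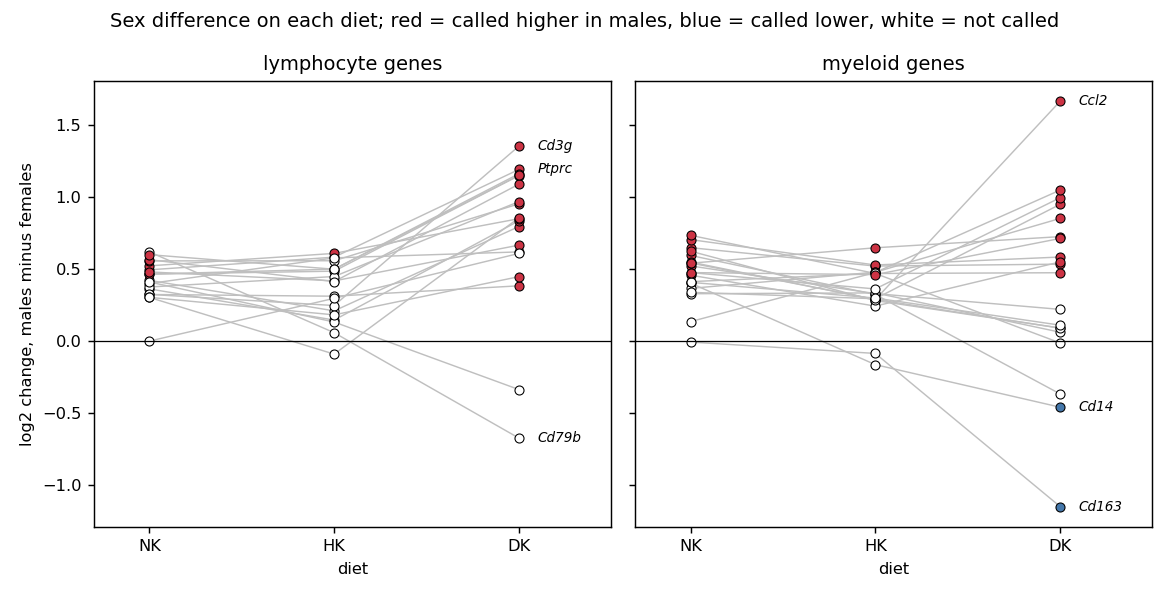
Male minus female log2(FPKM + 0.5) (vertical axis) of each tested member on NK, HK and DK (horizontal axis), with lines joining a gene; red marks genes called higher in males, blue lower and white neither. On DK Ccl2 lies at 1.66 and Cd163 at -1.15.

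Members also varied together within groups. After group means were subtracted, the median Pearson correlation over the 35 libraries was 0.27 between lymphocyte genes, 0.47 between myeloid genes and 0.33 across the lists, beside 0.00 for pairs among every 40th tested gene. Without male HK replicate 5 and male NK replicate 2, which were high for many members, these were 0.21, 0.38 and 0.26. The points share library and depth. Cd4 followed Csf1r at r = 0.89 (rho 0.89), more closely than Cd3e at 0.56 or Lck at 0.39. C1qb and C1qc had r = 0.95, and Cd163 had 0.63 with Mrc1 and 0.21 with C1qb.

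**Figure D5:**
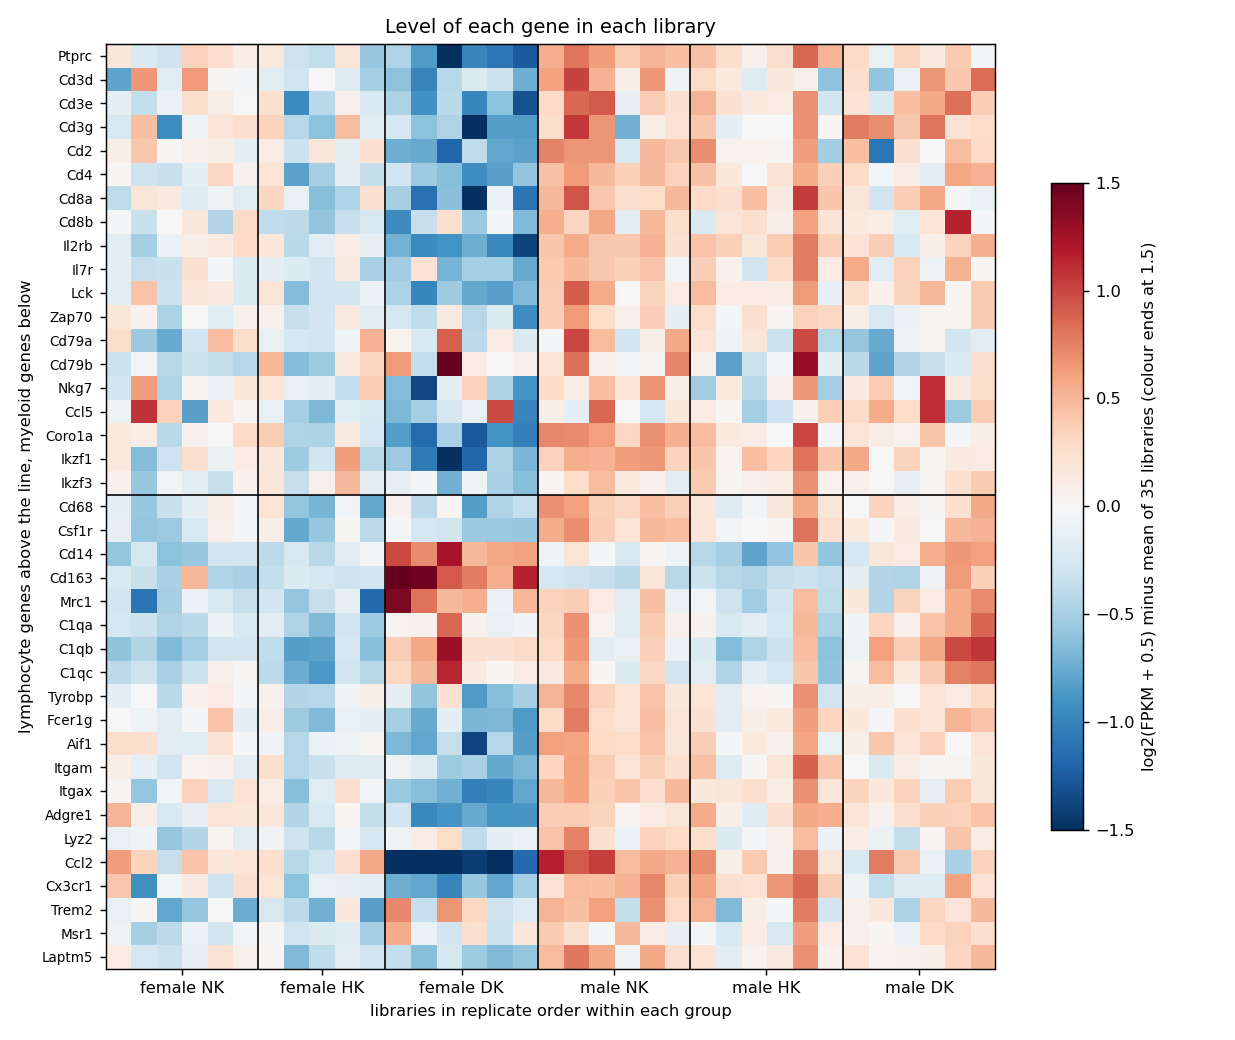
Log2(FPKM + 0.5) of the 39 tested members (rows) in 35 libraries (columns, by group), centred per gene, with colours ending at -1.5 and 1.5. Most lymphocyte rows are low across female DK, where the list median was -0.55. Myeloid rows there are divided, with 8 genes lower and 6 higher than in female NK. Without Cd163, which passed the filter only through female DK, 5 were higher.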

How the data were processed

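The deposited table holds FPKM per gene, computed by the authors from reads trimmed, aligned, assembled and counted with tools listed in the submitters' processing notes: featureCounts 1.5.0-p3 StringTie 1.3.3b, HISAT2 2.0.5 and fastp. The genome build and the strandedness of the counting are not given in the sources used here, so antisense reads cannot be told apart. Of 32545 genes, 9038 had no read. FPKM values gave whole reads for 100% of values (tolerance 0.01), and the library size in the authors' scaling was 0.813 to 1.162 times the summed reads. This ratio differed by group. It was 0.813 to 0.990 in female DK, 0.887 to 1.062 in female NK and 0.969 to 1.096 in female HK. In males it was 0.962 to 1.034 in DK, 1.075 to 1.162 in NK and 1.026 to 1.160 in HK. Groups came from the labels. Genes at 0.5 FPKM or more in at least 5 libraries (15939) were tested on log2(FPKM + 0.5) with limma 3.58.1 (R 4.3.3), 1 fit over 6 groups, 11 contrasts, Benjamini-Hochberg adjusted over all tested genes, called under 0.05. The fit was tested on simulated data. Tables and figures used Python 3.11.15, numpy 2.4.6, pandas 2.3.3, scipy 1.17.1 and matplotlib 3.10.9.

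The members and lists were chosen with earlier results of these data known. All members may be named, with values for those called in a female diet contrast and a fixed set of markers, and for other lists up to 4 called genes with the smallest p. Alternatives were other pseudocounts, filters, scalings, array weights, voom on recovered reads, the contrast's groups alone, the number series, a replicate block and leaving out libraries. Leaving out male HK replicate 5 and male NK replicate 2 together was chosen after seeing the data. No pair of libraries of a group agreed within counting noise.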

Additional observations from a re-analysis of the deposited data

Results flagged for a closer look

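In 252 sets of a member or level in 1 group, 23 (9.13%) had a library far from the others by Dixon's test, which chance gives in about 1 of 20. Male HK replicate 5 accounted for 4: it was highest of its group for Cd8a (5.39 FPKM), Csf1r (35.8 FPKM), Cd14 (9.95 FPKM) and Itgax (4.16 FPKM). Female DK replicate 3 was highest for C1qa (113.0 FPKM) and C1qb (95.3 FPKM). In other female libraries, Cd3g was lowest in DK replicate 4 (0.723 FPKM), Il7r highest in DK replicate 2 (2.03 FPKM) and Adgre1 highest in DK replicate 1 (5.36 FPKM). Cd79b was highest in NK replicate 2 (0.441 FPKM), Cd163 in NK replicate 4 (0.556 FPKM) and Fcer1g in NK replicate 5 (60.9 FPKM). In female HK, Cd79a was highest in replicate 5 (0.715 FPKM) and Aif1 lowest in replicate 2 (8.42 FPKM).

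In male DK, Cd2 was lowest in replicate 2 (0.591 FPKM), Cd8b highest in replicate 5 (1.64 FPKM) and Nkg7 highest in replicate 4 (4.6 FPKM). In male NK, Cd8a was highest in replicate 2 (5.00 FPKM), Ccl5 in replicate 3 (11.2 FPKM) and Cd163 in replicate 5 (0.349 FPKM), while Cd2 was lowest in replicate 4 (1.46 FPKM) and Il7r in replicate 6 (1.62 FPKM). The lymphocyte minus myeloid level was highest in male HK replicate 2 (0.26).

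By the interaction term of the limma fit, 9 members were called for a change from NK to DK that differed between males and females. Of all genes 4.35% were called higher and 4.57% lower. The male minus female value was 0.70 for Ptprc, 0.70 for Il2rb, 0.61 for Aif1, 0.91 for Adgre1, 1.12 for Ccl2, -0.86 for Cd14, -1.14 for Cd163, -0.96 for Mrc1 and -1.29 for Cd79b. For the change from HK to DK it was 0.66 for Il2rb, 0.66 for Aif1, 1.38 for Ccl2 and -1.06 for Cd163. There 2.12% of all genes were called higher and 2.64% lower. Cd163 passed the filter only through female DK. None of the 9 and 4 calls held under every setting and every left-out library.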

How the results depend on the processing

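No called member changed sign in any setting or with any library left out. Values near 0 and balances of counts did: the myeloid level, as a difference of means in female DK against NK, was -0.02 and ran from -0.07 to 0.03 with libraries left out, with 0.03 at a pseudocount of 0.1, and against HK it was 0.10 and -0.10 under library sums. The myeloid level counts Cd163, which passed the filter only through female DK, so these values are not a result by themselves. The lymphocyte minus myeloid level of males against females on NK was -0.04, and 0.03 at a pseudocount of 0.1. Library sums turned the balance of myeloid genes in female DK against HK from 6 higher and 5 lower to 5 and 8, and those of all genes given in the report. Calls held under every setting and every left-out library for 17 of 25 members in female DK against NK, 14 of 20 in female DK against HK, 10 of 29 in males against females on DK, 1 of 10 on HK (Cd4) and 0 of 20 on NK, and for none of the 9 and 4 sex differences in DK against NK and HK, the 3 male calls against HK and the 1 against NK. Depth limits the low members: 10 lymphocyte genes and 1 myeloid gene had 10 or fewer reads in some library. The cause of the changes below was not tested.

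In female DK against NK, 1 lymphocyte gene was called higher under quantile normalization and without the pair male HK replicate 5 and male NK replicate 2, and 5 myeloid genes lower in libraries of the 300s alone. In female DK against HK, myeloid genes lower numbered 8 under library sums and 9 under voom. A pseudocount of 0.1 moved the mean difference in the lymphocyte minus myeloid level from -0.51 to -0.67 against NK and from -0.52 to -0.69 against HK. All of these values count Cd163, which passed the filter only through female DK, and its share in the shift was not tested. In male DK against NK, lymphocyte genes lower numbered 1 under array weights and library sums and 2 under voom and in the contrast's groups alone. Myeloid genes lower there numbered 2 under array weights, library sums and voom and 0 in the contrast's groups alone, in the 300s alone, without that pair, with no filter, with the series as a covariate, at a pseudocount of 0.1 and with the replicate block. Array weights gave 1 myeloid gene lower in male HK against NK and 1 in male DK against HK. In male DK against HK, myeloid genes higher numbered 1 in the contrast's groups alone and with the series as a covariate, and 0 in the 300s alone.

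For the sex difference in DK against NK, lymphocyte genes higher numbered 5 under array weights, 4 without that pair, 1 under library sums, with no filter and with the series as a covariate, and 0 in the 300s alone. Lymphocyte genes lower numbered 0 in the 300s alone, with no filter, with the series, with the replicate block and under voom. Myeloid genes higher numbered 5 under array weights, and both directions 0 in the 300s alone and with the series. For the sex difference in DK against HK, lymphocyte genes higher numbered 5 under array weights, 4 without that pair, 3 under voom, 2 under library sums and 0 in the contrast's groups alone, in the 300s alone, with no filter and at a pseudocount of 1. Myeloid genes higher numbered 4 under array weights and voom, 1 in the contrast's groups alone, with no filter and under quantile normalization, and 0 in the 300s alone. Myeloid genes lower numbered 0 with a filter at 1 FPKM, in the 300s alone, under library sums and voom, with the series and at a pseudocount of 0.1.

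In males against females on NK, lymphocyte and myeloid genes higher numbered 0 and 0 in the 300s alone and 0 and 1 with the series. On DK they numbered 4 and 6 in the 300s alone. Lymphocyte genes lower on DK numbered 1 without that pair and under quantile normalization. Myeloid genes lower on DK numbered 0 in the 300s alone and 1 under array weights, library sums and voom, with a filter at 1 FPKM, in the contrast's groups alone and with the series. On HK lymphocyte genes higher numbered 5 under array weights and 1 without that pair, and myeloid genes higher 1 in the contrast's groups alone, 4 under library sums and 0 without that pair.

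With 1 library left out in turn, lymphocyte genes higher in female DK against NK ranged from 0 to 1, myeloid genes lower in male DK from 0 to 1 against NK and from 0 to 1 against HK. For the sex difference in DK against NK lymphocyte genes higher ranged from 1 to 4 and lower from 0 to 1. For that in DK against HK, lymphocyte genes higher ranged from 0 to 3, and myeloid genes higher from 1 to 4 and lower from 0 to 1. In males against females, lymphocyte and myeloid genes higher ranged from 3 to 8 and 7 to 14 on NK and from 1 to 6 and 0 to 7 on HK, and genes lower on DK from 0 to 1 and 1 to 2.

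Same-numbered libraries of different groups correlated at -0.25 to 0.19 (85 pairs, 9 over 0.1), and 7 of 35 libraries correlated best with their own number. The labels do not say whether a shared number marks a pairing, and these correlations cannot exclude one. With the replicate block, female DK against NK gave 11 lymphocyte genes lower and 6 myeloid genes higher and 8 lower.

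Over all genes, calls ranged from 3567 to 6754 across settings around 5760 in female DK against NK, from 60 to 1628 around 685 in male DK against NK, from 3689 to 6912 around 5328 in female DK against HK and from 101 to 1847 around 599 in male DK against HK. They ranged from 35 to 2163 around 1422 and from 41 to 1430 around 759 for the sex differences, and in males against females from 798 to 4061 around 3082 on NK, from 429 to 6209 around 5067 on DK and from 1230 to 2413 around 1442 on HK. In male HK against NK array weights called 247 genes in place of 0, and in female HK against NK the 300s alone called 2.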
